A study of Mus musculus with 4 samples.

Results

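The cyclin D genes, the 2 kinase genes *Cdk4* and *Cdk6* and 5 genes for inhibitors of these kinases were read in RNA-seq of cultured embryonic fibroblasts of the mouse (MEFs), cells of connective tissue. Members were chosen by symbol, as rows of the deposited count table that bear 1 of 10 gene names, and all 10 were found among its 23537 genes. The samples are 2 libraries of *Mbd4*-/- (KO) cells and 2 of *Mbd4*+/+ (WT) cells, all of C57BL/6 mice as labelled, from embryos at day 12.5, grown to subconfluence, with no treatment named in the labels. MBD4 is a DNA glycosylase that binds methylated DNA and removes the thymine of G/T mismatches, and the study asked what its loss does to methylation and transcription. The methods call the 2 RNA samples of each genotype independent, but the sources used here do not state the making of the *Mbd4* allele, the passage of the cells or whether the samples came from different embryos. The p-values therefore set the difference between KO and WT only against the spread of these samples, and that spread may be technical.

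Cells commit to division late in G1. D-type cyclins are made in response to growth factors and switch on CDK4 and CDK6, which phosphorylate the retinoblastoma protein and so release E2F factors to transcribe genes of S phase. INK4 proteins bind CDK4 and CDK6 and keep the cyclin out, whereas Cip/Kip proteins bind cyclin-kinase complexes and block mainly CDK2. MEFs are a classic system for these genes, because *Cdkn2a* and *Cdkn1a* accumulate as the primary cells near senescence in culture.

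The transcription starts of the most strongly raised inhibitor, *Cdkn1a*, and of *Cdkn2a*, which makes 2 unrelated proteins from 2 starts, are shown because a count per gene pools both starts of each. RefSeq promoters of 300 bases, from 250 before to 50 after a start on GRCm38.p6, matched 8 of the 10 members with 12 starts. *Ccnd1* and *Ccnd2* were not among them. Below, capitals mark a GC box (GGGCGG), an E2F site (TTTGGCGC, TTTCGCGC, TTTGCCGC or TTTCCCGC), a CCAAT box, a TATA box (TATAAA) or a p53 site of 20 bases with at most 1 mismatch to the consensus, all on either strand. The p53 consensus was added after the sequences were seen.
*Cdkn1a* upstream start, chr17:29090729-29091028, plus strand: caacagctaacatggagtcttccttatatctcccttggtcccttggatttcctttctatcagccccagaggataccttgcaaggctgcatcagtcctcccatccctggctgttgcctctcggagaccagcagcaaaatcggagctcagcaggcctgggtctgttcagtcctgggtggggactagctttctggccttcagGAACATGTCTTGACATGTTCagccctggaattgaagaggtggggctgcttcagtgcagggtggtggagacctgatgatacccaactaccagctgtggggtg
*Cdkn1a* downstream start, chr17:29093519-29093818, plus strand: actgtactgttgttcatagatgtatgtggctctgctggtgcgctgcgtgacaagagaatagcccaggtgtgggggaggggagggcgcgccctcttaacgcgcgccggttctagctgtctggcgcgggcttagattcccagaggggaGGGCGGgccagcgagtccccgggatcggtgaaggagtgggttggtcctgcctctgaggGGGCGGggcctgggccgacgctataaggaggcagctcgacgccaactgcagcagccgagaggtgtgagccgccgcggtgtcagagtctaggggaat
*Cdkn2a* upstream start (Arf), chr4:89294570-89294869, minus strand: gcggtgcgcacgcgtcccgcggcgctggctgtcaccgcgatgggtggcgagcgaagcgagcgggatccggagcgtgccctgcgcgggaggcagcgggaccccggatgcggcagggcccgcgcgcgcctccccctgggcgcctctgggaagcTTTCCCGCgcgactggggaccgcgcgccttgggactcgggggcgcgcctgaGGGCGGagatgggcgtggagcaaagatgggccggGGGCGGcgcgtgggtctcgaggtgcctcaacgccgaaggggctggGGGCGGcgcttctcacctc
*Cdkn2a* downstream start (Ink4a), chr4:89282143-89282442, minus strand: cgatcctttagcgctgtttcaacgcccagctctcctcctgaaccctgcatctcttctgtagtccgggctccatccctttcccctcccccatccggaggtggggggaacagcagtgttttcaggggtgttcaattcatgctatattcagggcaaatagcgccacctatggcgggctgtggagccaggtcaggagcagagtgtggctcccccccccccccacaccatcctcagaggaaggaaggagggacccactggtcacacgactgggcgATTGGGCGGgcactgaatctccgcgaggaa

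The 20 capitals at the upstream start of *Cdkn1a* are the p53 match, which 0.0883% of the 32851 promoters of this length hold. A GC box stood in 9 of the 12 member promoters, against 35.7% of all promoters. All member promoters but 1 of *Cdkn2c*, at 44% GC, lay above the median of all promoters, 52.7% GC. The part of GC content in the GC box difference was not tested. An E2F site stood in 1 of the 12, the Arf promoter of *Cdkn2a*, against 2.26% of all. CCAAT was found in 4 of the 12 and TATAAA in 1, that of *Cdk6*, where the shares of all promoters were 37.4% and 13.6%. In the Ink4a promoter the CCAAT box, read on the complement of the strand printed, and the GC box overlap. These are matches of letters and not shown to be bound sites.

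The libraries held 39108275 to 47567835 counts, and 15538 genes passed edgeR's filter on low counts, all 10 members among them. As the check of the labels, *Mbd4* had 7.85 and 7.33 CPM (counts in 1000000 of a library, scaled by TMM) in KO cells and 14.8 and 15.4 CPM in WT cells (log2 fold change -0.99), so that 0.503 of its WT level remained in KO cells. Its divergent neighbour *Ift122*, a cilium gene, had 7 and 3 counts in KO and 1002 and 944 in WT libraries, so the KO cells lack most *Ift122* RNA, and the parts of the lower *Mbd4* and *Ift122* levels in the other differences cannot be told apart. Fibroblast markers summed to 12714 and 13850 CPM in KO and 23290 and 20931 CPM in WT cells, with 5 of 8 lower and 3 not past the test. The 5 lower were the matrix and filament genes *Col1a1*, *Col1a2*, *Col3a1*, *Fn1* and *Vim*, which make up most of the sum. The other 3 were genes of surface proteins, *Pdgfra* at a log2 fold change of -0.06, *Pdgfrb* at 0.09 and *Thy1* at 0.06. Macrophage markers summed to 6.59 and 6.96 CPM in KO and 4.58 and 3.95 CPM in WT cells. Of these, *Csf1r*, the receptor gene of a macrophage growth factor, had 196 and 177 counts in KO and 61 and 47 in WT libraries (log2 fold change 1.74), and the leukocyte gene *Ptprc* had 0 and 2 counts in KO and 40 and 21 in WT libraries. Endothelial and epithelial markers summed to between 0.757 and 3.43 CPM in every library, with the endothelial cadherin gene *Cdh5* at 0 in both KO and at 0 and 2 counts in WT libraries. *Cdh1*, an epithelial cadherin, had 142 and 107 counts in KO and 10 and 9 in WT libraries. The other epithelial markers had few counts and no common direction. *Epcam* had 13 and 13 counts in KO and 12 and 18 in WT libraries. *Krt8* had 2 and 0 in KO and 6 and 18 in WT libraries, and *Krt5* 6 and 5 in KO and 0 and 0 in WT libraries. The neuronal tubulin gene *Tubb3*, most of the neural sum, had 181 and 234 counts in KO and 1447 and 1402 in WT libraries. The part of these differences in the results that follow was not tested.

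The KO cells had less *Ccnd1*, *Ccnd2* and *Cdk6* RNA and more RNA of *Cdk4* and of all 5 inhibitor genes, while *Ccnd3* did not pass the test. The largest changes were a 5.22-fold lower level of *Ccnd2* and a 7.10-fold higher level of *Cdkn1a*. At an adjusted p of 0.05 from edgeR's quasi-likelihood test, 6 of 10 members were higher and 3 lower. Over all genes tested 66.8% passed this threshold, 34.3% higher and 32.5% lower, so that a changed gene is common in this comparison. The split was 5335 higher and 5045 lower genes with TMM, against 6628 and 3964 when scaled by library totals, while the members stayed at 6 and 3. The KO and WT libraries did not overlap in 9 of the 10 members, against 82.8% of all genes. With stricter limits, an adjusted p of 0.01 and a log2 fold change beyond 2 in either direction, 2 of 10 members passed, against 8.94% of all genes. These are *Cdkn1a*, higher like 5.79% of all genes, and *Ccnd2*, lower like 3.15% of all genes. The median absolute log2 fold change was 0.76 for the members and 0.47 for all genes. In absolute change the members exceeded from 0.914% (*Ccnd3*) to 94.7% (*Cdkn1a*) of all genes. *Cdk4* exceeded 34.2%, *Cdkn2a* 54.4%, *Cdkn2b* 57.4% and *Cdkn1b* 59.2% of all genes, so these changes were of ordinary size here. In such bulk samples fewer cells of a type and less RNA per cell cannot be told apart.

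**Figure D1:**
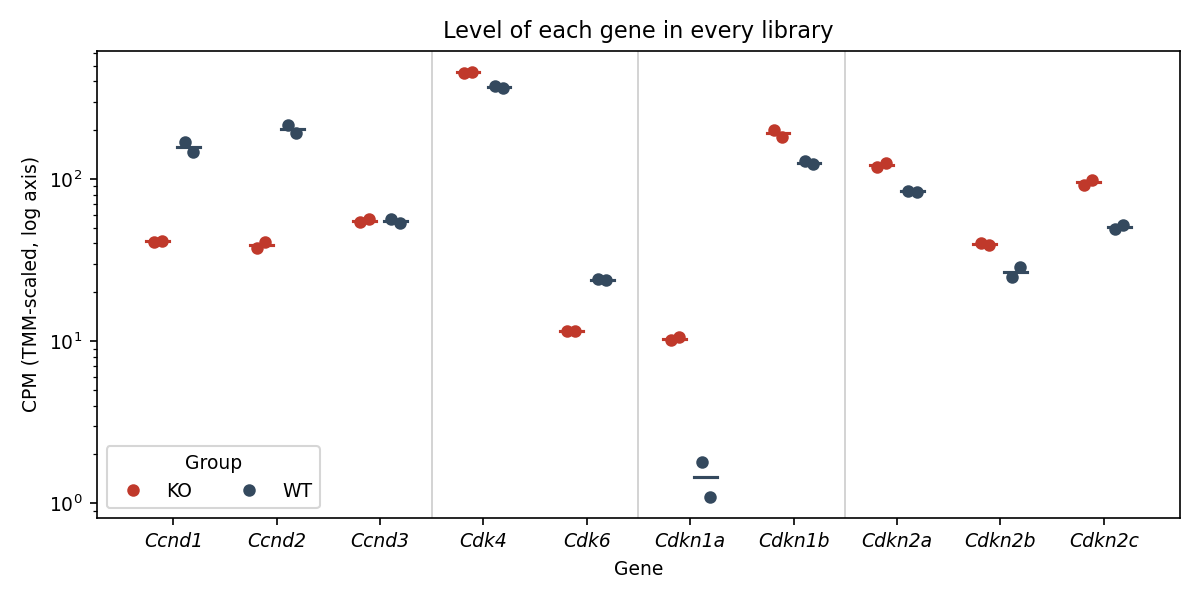
Level of each of the 10 genes as CPM on a log axis, with a point for each library (2 KO, 2 WT) and a line at the group mean. KO libraries lie below WT libraries for *Ccnd1*, *Ccnd2* and *Cdk6*, overlap with them for *Ccnd3* and lie above them for the other 6 genes.

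Among the D cyclins, *Ccnd2* fell the most. *Ccnd2* (cyclin D2; mm9 chromosome 6 from 127075797 to 127101066, minus strand) had 37.3 and 41.0 CPM in KO cells, against 215 and 193 CPM in WT cells. Its log2 fold change was -2.38 ± 0.07 (edgeR adjusted p = 1.1e-11), and only 2.40% of all genes tested had a lower one. *Ccnd1* (cyclin D1, the D cyclin best known as an oncogene; chromosome 7 from 152115836 to 152125774, minus strand) had 40.8 and 41.5 CPM in KO cells, against 168 and 147 CPM in WT cells. Its log2 fold change was -1.93 ± 0.07 (edgeR adjusted p = 7.1e-11), a 3.82-fold lower level just inside the limit of 2, which it passed without WT replicate 2 (-2.06). In both genes the KO libraries lay close together and far below the WT libraries.

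*Ccnd3* (cyclin D3, prominent in lymphocytes; chromosome 17 from 47642000 to 47736632, plus strand) had 54.4 and 56.3 CPM in the KO libraries and 56.5 and 53.7 CPM in the WT libraries. The groups overlapped, with a log2 fold change of 0.01 and a 95% interval of -0.13 to 0.14 (edgeR adjusted p = 0.93). This interval holds 0 and reaches nowhere near the values of the other D cyclins. Scaled by library totals rather than TMM, the median of all genes moved from 0.02 to 0.17 and *Ccnd3* to 0.16 (edgeR adjusted p = 0.052), still beside that median. *Ccnd1* overlaps exons of *Oraov1* and *Ccnd3* exons of *Bysl*, each on the other strand, and the sources used here do not state whether the counting used the strand. *Oraov1* had a log2 fold change of -0.02 and *Bysl* of -0.92, neither like that of its partner. The span of *Ccnd2* also holds the RNA gene *9330179D12Rik*, too low to be tested, and *Cdk6* overlaps *Gm17590*, which was not analysed here.

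The 2 kinase genes moved in opposite directions. *Cdk4* (chromosome 10 from 126500590 to 126504976, plus strand) was the most abundant member, also per kilobase of exon, with 452 and 457 CPM in KO libraries, against 374 and 363 CPM in WT libraries. It was 1.23-fold higher (log2 fold change 0.30 ± 0.06, edgeR adjusted p = 0.00038), the smallest change among the members that passed. *Tspan31*, whose exons overlap those of *Cdk4* on the other strand, had a similar log2 fold change of 0.27. *Cdk6* (chromosome 5 from 3343893 to 3523218, plus strand), a kinase closely related to CDK4 and used most in blood cells, had 11.6 and 11.6 CPM in KO libraries and 24.0 and 23.7 CPM in WT libraries. It was thus 2.06-fold lower (log2 fold change -1.04 ± 0.09, edgeR adjusted p = 2.1e-07).

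The Cip/Kip genes were higher in the KO cells, *Cdkn1a* far more than *Cdkn1b*. *Cdkn1a* (p21, the best known target of p53 in cell cycle arrest; chromosome 17 from 29227924 to 29237667, plus strand) was counted 482 and 434 times in KO cells, against 80 and 45 times in WT cells. These are 10.1 and 10.5 CPM in KO and 1.79 and 1.10 CPM in WT cells. The exact 95% Poisson intervals of the WT counts, 63.4 to 99.6 and 32.8 to 60.2, are of raw counts in libraries of unequal depth and cover counting error only. Relative to its mean, *Cdkn1a* in WT cells had the widest spread of the members. Its log2 fold change was 2.83 ± 0.19 (edgeR adjusted p = 2.2e-08) and lay between 2.50 and 3.23 with 1 library left out. *Cdkn1b* (p27, which holds resting cells in arrest; chromosome 6 from 134870419 to 134875531, plus strand) had 201 and 181 CPM in KO cells, against 128 and 123 CPM in WT cells. This is 1.52-fold higher (log2 fold change 0.60 ± 0.07, edgeR adjusted p = 2.4e-06), with every KO library above both WT libraries.

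All 3 INK4 members were higher, by similar amounts for the neighbours *Cdkn2a* and *Cdkn2b* and more for *Cdkn2c*. *Cdkn2a* (chromosome 4 from 88920377 to 88940557, minus strand), whose starts shown above give p16INK4a and the p53 activator p19ARF, had 118 and 125 CPM in KO cells, against 84.8 and 83.6 CPM in WT cells. It was 1.45-fold higher (log2 fold change 0.53 ± 0.06, edgeR adjusted p = 3.6e-06), and a count per gene does not tell which of the 2 transcripts rose. *Cdkn2b* (p15, induced by TGF-beta) lies 11640 bases further on, from 88952198 to 88956941, and had 40.4 and 39.1 CPM in KO cells, against 24.7 and 28.7 CPM in WT cells. This is 1.49-fold higher (log2 fold change 0.58 ± 0.08, edgeR adjusted p = 4.0e-05). *Cdkn2c* (p18; chromosome 4 from 109333481 to 109339794, minus strand) had 91.6 and 99.0 CPM in KO cells, against 49.0 and 52.1 CPM in WT cells, 1.88-fold higher (log2 fold change 0.91 ± 0.07, edgeR adjusted p = 5.9e-08). Here too the KO libraries all lay above the WT libraries.

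**Figure D2:**
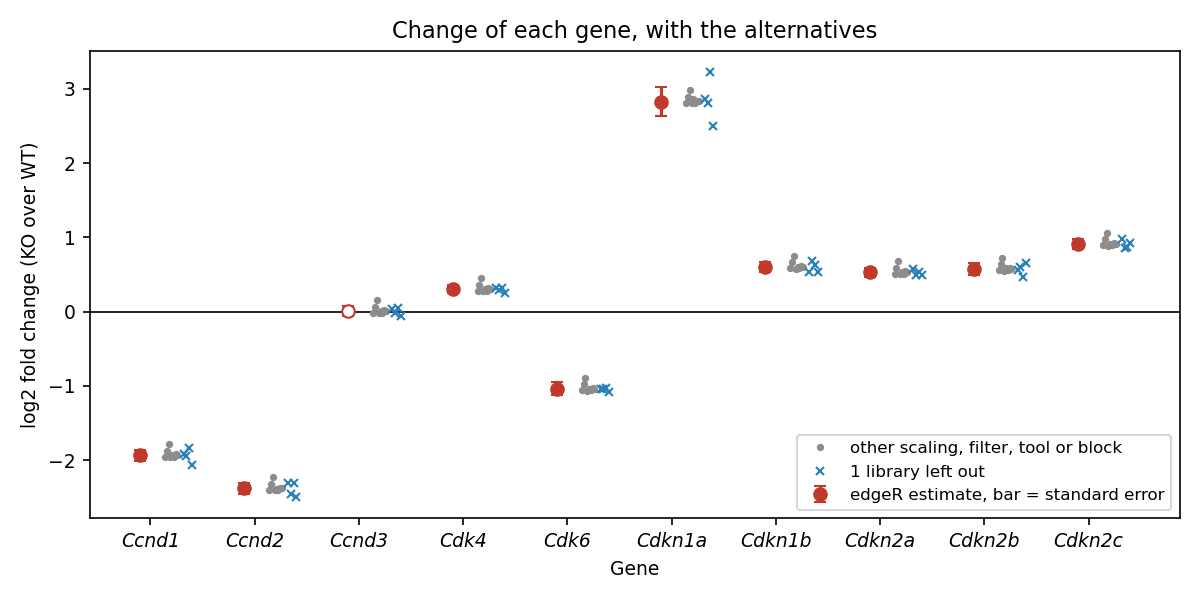
Log2 fold change (KO over WT) of each gene, with the estimate from edgeR and its standard error (filled where the adjusted p was under 0.05), the values with other scalings, filters, tools or the replicate block (grey) and those with 1 library left out (crosses). *Ccnd2* at -2.38 and *Cdkn1a* at 2.83 stand farthest from 0, and *Ccnd3* at 0.01 is the gene whose sign turned.

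*Mtap*, a gene of methionine salvage listed as a neighbour of *Cdkn2a* and *Cdkn2b*, had 129 ± 6.62 CPM in KO cells and 213 ± 2.76 CPM in WT cells (SD, n = 2 each). It thus moved against both INK4 genes (log2 fold change -0.72, edgeR adjusted p = 2.0e-07). *Dmrta1*, listed with it and named here after its values were seen, averaged 0.503 CPM in KO and 0.0234 CPM in WT cells, both very low. It was called higher, like both INK4 genes (log2 fold change 4.26 ± 0.70, edgeR adjusted p = 0.00012), on few reads. *Elavl2*, the last of that list, had too few counts to be tested. *Ccnd2* lies 11.3 Mb and *Cdkn1b* 19.1 Mb from *Mbd4* on chromosome 6, and the other 8 members lie on other chromosomes. Among the inhibitor genes outside the members, *Cdkn1c* had 165 and 169 counts in KO and 158 and 212 in WT libraries (edgeR adjusted p = 0.38, but called lower without WT replicate 1), and *Cdkn2d* averaged 0.947 CPM in KO and 0.761 CPM in WT cells (edgeR adjusted p = 0.35).

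Shares within a library do not depend on how libraries are scaled, and are given per kilobase of exon so that genes can be compared. *Ccnd3* made up 58.4% and 58.1% of D cyclin reads per kilobase in KO cells, against 23.5% and 24.8% in WT cells. *Ccnd1* took 25.7% and 25.2% in KO and 41.1% and 39.9% in WT libraries, and *Ccnd2* 15.8% and 16.7% in KO and 35.4% and 35.3% in WT libraries. Per kilobase, the leading D cyclin transcript was thus *Ccnd3* in each KO library and *Ccnd1* in each WT library. In raw reads *Ccnd3* also led in KO libraries, with 41.1% and 40.6%, but *Ccnd2* led in WT libraries, with 48.9% and 49.1%. *Cdk6* was a small part of the kinase transcripts in either genotype, with 2.18% and 2.16% in KO and 5.29% and 5.37% in WT libraries. *Cdkn1a* made up 9.37% and 10.7% of the Cip/Kip members in KO and 2.77% and 1.79% in WT libraries. The INK4 members shifted little, with *Cdkn2c* at 20.8% and 21.4% in KO and 16.8% and 17.4% in WT libraries. The sum of the 5 inhibitors was 5.15 and 5.03 times that of the 3 D cyclins in KO libraries and 1.29 and 1.45 times in WT libraries. In raw reads this ratio was 3.48 and 3.27 in KO and 0.657 and 0.734 in WT libraries. Which sum is larger in WT libraries thus depends on the basis. With 2 libraries against 2 an exact permutation test cannot give a two-sided p below 0.333, so these shares carry no test.

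**Figure D3:**
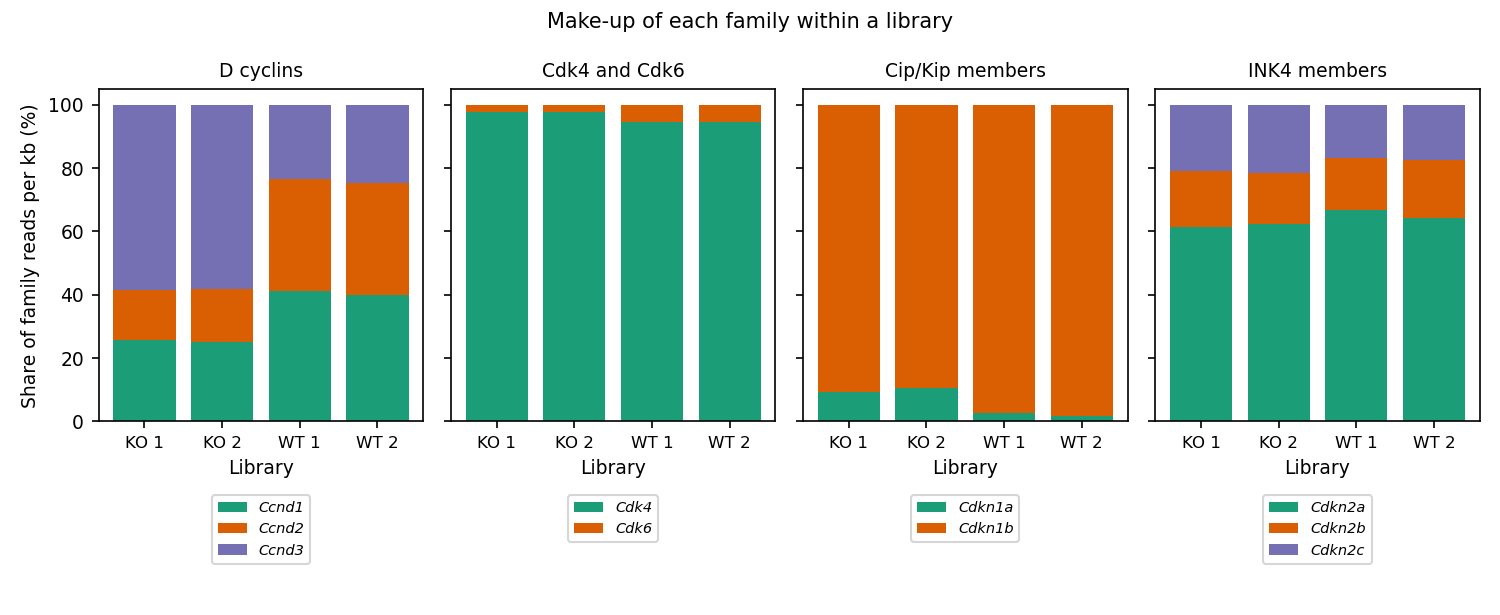
Share of each gene in the reads per kilobase of its family, in percent, for each of the 2 KO and 2 WT libraries. *Ccnd3* takes 58.4% and 58.1% of the D cyclin bars in KO and 23.5% and 24.8% in WT libraries, while *Cdk4* fills over 94.6% of its bars throughout.

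Levels per kilobase of exon (CPM per kilobase) put the members in a different order in each genotype. In KO cells *Cdk4* stood at 140, *Cdkn2a* at 104, *Cdkn1b* at 41.9, *Cdkn2c* at 35.5, *Cdkn2b* at 28.5, *Ccnd3* at 24.6, *Ccnd1* at 10.7, *Ccnd2* at 6.87, *Cdkn1a* at 4.65 and *Cdk6* at 3.10 on average. No neighbours in that order overlapped between replicates. In WT cells *Cdk4* stood at 113 and *Cdkn2a* at 72.0, followed by *Ccnd1* at 41.0, *Ccnd2* at 35.8, *Cdkn1b* at 27.6, *Ccnd3* at 24.4, *Cdkn2b* at 19.2, *Cdkn2c* at 18.8, *Cdk6* at 6.39 and *Cdkn1a* at 0.649. There *Cdkn2b* and *Cdkn2c* overlapped between replicates, while the lowest *Ccnd1* value, 38.2, was just above the highest *Ccnd2* value, 37.7. As a description over these 4 libraries, the 3 genes whose log2 CPM pattern lay nearest to that of *Cdkn1a* were *Fam154a*, *Gm4841* and *Kif19a*, at root mean square distances of 0.051, 0.078 and 0.080. *Fam154a* and *Gm4841* had at most 17 counts in a library, so this likeness rests on few reads.

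Downstream of the kinases, genes of S phase were split between higher and lower, and most of the mitosis genes listed were lower. Of 20 E2F target genes of S phase, 10 were higher and 6 lower (median log2 fold change 0.07). The direction with more called genes turned to lower when WT replicate 2 was left out. The helicase subunit gene *Mcm6* stood at 0.95 and the primase gene *Prim1* at 0.77. On the lower side were *Mcm10* at -0.75 and the licensing factor gene *Cdt1* at -0.56. Of 20 mitosis genes 15 were lower and 3 higher (median -0.44), among them the mitotic kinase gene *Plk1* at -1.12 and the ubiquitin-conjugating enzyme gene *Ube2c* at -0.96, while *Kif11*, a spindle motor gene, rose by 0.31 and *Top2a*, the most abundant of them, had 0.06 (edgeR adjusted p = 0.42). The count of higher mitosis genes was 1 without KO replicate 1 and 1 without KO replicate 2. Of 10 later cyclins and their kinases 5 were lower and 2 higher (median -0.14), with *Ccnb1* at -0.56 and *Ccna2* at -0.50, against *Cdk2*, the kinase that Cip/Kip proteins block, at 0.54. Without KO replicate 1 the higher ones numbered 1. Over all genes tested the median was 0.02, with 34.3% higher and 32.5% lower. These values are also the comparison for the list counts and medians that follow.

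Of 13 pocket protein, E2F and DP genes 5 were higher, 3 without KO replicate 2, and 6 lower (median -0.26). The repressor gene *E2f7* had 64.9 ± 2.78 CPM in KO cells and 27.3 ± 1.59 CPM in WT cells (SD, n = 2 each; log2 fold change 1.25), and the pocket protein gene *Rbl1* stood at 0.48. *E2f4*, which acts with pocket proteins in resting cells, had 13.5 ± 0.216 CPM in KO cells and 30.4 ± 1.64 CPM in WT cells (log2 fold change -1.17). Of 16 inducers and turnover factors of D cyclins 9 were lower and 4 higher (median -0.23). This list pools factors that raise D cyclins with factors that break them down, so its median has no single direction. The transcription factor genes *Fosl1* at -1.48 and *Myc* at -0.84 and the p27 ligase cofactor gene *Cks1b* at -0.93 were lower. So was *Junb* at -0.71, named after its values were seen, while *Fos* at 0.86 and *Jun* at 0.57 were higher. *Ctnnb1*, the most abundant of them, had 0.06 (edgeR adjusted p = 0.35).

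Regulators of the *Cdkn2a*-*Cdkn2b* locus, repressors and activators pooled, were higher in 11 of 19 cases and lower in 6 (median 0.21). The Polycomb genes *Ezh1* at 1.13 and *Cbx7* at 0.90 rose together with *Tbx2*, a T-box repressor of the locus, at 1.38. Polycomb genes were not all higher, as *Suz12*, the most abundant gene of this list, stood at -0.20. *Eed* at -0.69 and *Bmi1* at -0.27, named after their values were seen, were also lower. More of the Polycomb genes listed were higher, and *Suz12*, *Eed* and *Bmi1* were the only lower ones. Named in the same way, *Ring1* stood at 0.69, *Cbx8* at 0.62, *Pcgf2* at 0.42, *Ezh2* at 0.27 and *Rnf2* at 0.17. *Hmga2*, which restrains the locus in young stem cells, fell by 1.51, *Ets1*, an activator of *Cdkn2a*, fell by 1.34 and *Tbx3*, another repressor, fell by 0.79. Among 18 genes of the p53 axis 9 were higher and 8 lower (median 0.12). Over all genes tested 34.3% were higher and 32.5% lower, so called genes in both directions are common here. *Trp53inp1* at 2.29, *Eda2r* at 2.06 and *Ccng1* at 1.09, all p53 target genes, were higher, against *Perp* at -3.25, *Sesn2* at -1.20 and *Aen* at -1.08. *Trp53* itself, named after its values were seen, had a log2 fold change of -0.37 (edgeR adjusted p = 0.0036).

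Markers used for senescent fibroblasts were lower in 9 and higher in 4 of 16 tested genes (median -0.36). The lower ones include *Lmnb1* at -0.22 and *Hmgb1* at -0.26, named after their values were seen. These 2 are used as markers by their loss, so the count and median have no single direction. *Gdf15* at -4.86, *Igfbp7* at -4.09 and *Plau* at -1.85 were lower. *Glb1*, the gene of the lysosomal beta-galactosidase stained in senescent cells, was higher at 0.56, as were the collagenase gene *Mmp13* at 4.25 and *Mmp3* at 1.36. The symbol *Glb1* stands on 2 rows of the table, and the row with more counts was used. These RNA levels do not measure proliferation or senescence.

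**Figure D4:**
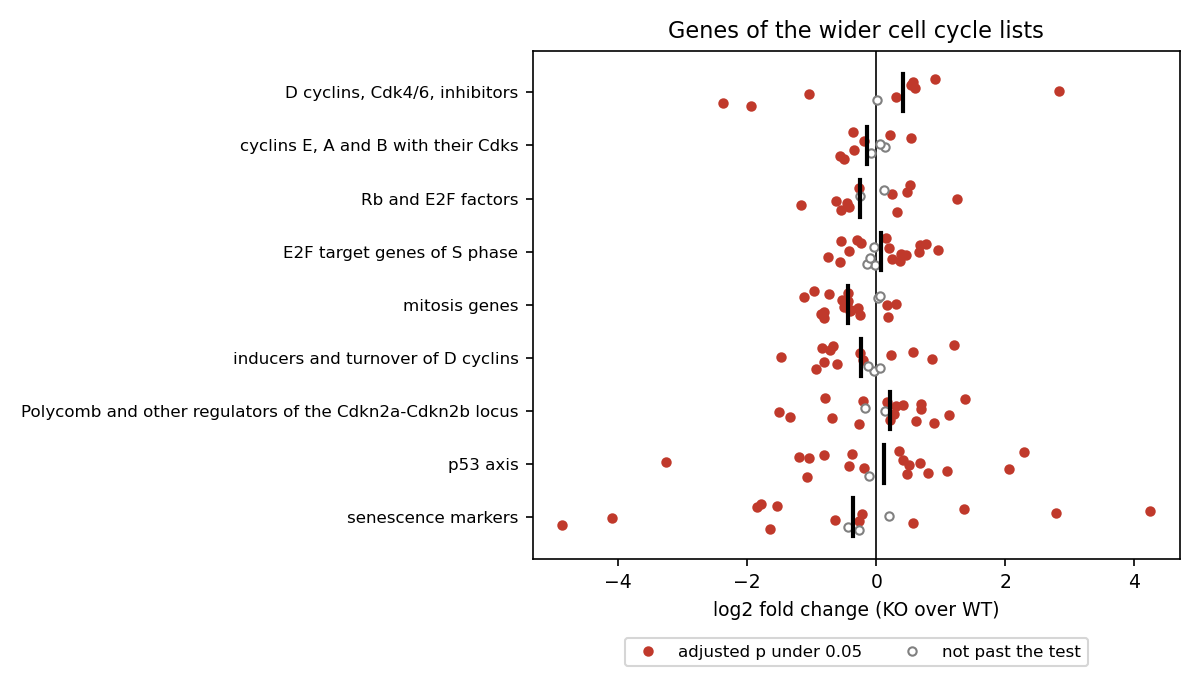
Log2 fold change (KO over WT) of each tested gene, a point per gene, in the 10 members and in 8 lists of the wider pathway, filled where the adjusted p was under 0.05 and with the list median as a bar. Medians run from -0.44 for mitosis genes to 0.42 for the members, and each list holds genes on either side of 0.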

How the data were processed

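RNA of MEFs was sequenced in 2 KO and 2 WT libraries after removal of ribosomal RNA, with a strand-keeping kit and single-end reads. The authors aligned the reads to mm9 with TopHat2 and Bowtie and counted them per Ensembl gene with HTSeq 0.5.4p3. The deposited table holds these raw read counts, values normalized with DESeq and the log2 ratios, with p-values, that the authors computed from them, and only the raw counts were used. Of 23537 gene IDs, 23393 are in the GENCODE annotation of NCBIM37 (mm9), which gave coordinates, overlaps and exon lengths.

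Genes were filtered with filterByExpr (7999 removed), scaled by TMM and tested in edgeR 4.0.16 under R 4.3.3 with the quasi-likelihood test on genotype alone, and p-values were adjusted by Benjamini-Hochberg over 15538 genes. The scripts were tested on simulated data. The ± after a log2 fold change is its standard error, taken from the F statistic, and the 95% interval is a normal one. Replicates differed beyond sampling noise (mean chi-square per gene 5.63 for KO and 11.6 for WT).

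Members and lists were chosen with earlier results of these data known. Named genes are the members, *Mbd4*, *Ift122*, up to 3 genes per direction with the largest change in each list (adjusted p under 0.05, at least 1 CPM), its most abundant gene, and the 3 genes nearest in pattern to the most changed member. Not all of these are reported here. Alternatives were other scalings and filters, DESeq2 1.42.0, limma-voom (limma 3.58.1), the replicate block, thresholds and leaving out each library.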

Additional observations from a re-analysis of the deposited data

How the results depend on the processing

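The 9 calls kept their direction and stayed past an adjusted p of 0.05 in edgeR with RLE, upper quartile and library total scaling, with no filter and with 10 counts in every library, in DESeq2, in limma-voom and without each library in turn, so that 6 members were higher and 3 lower each time. The counts were also 6 and 3 with the replicate block, with a log2 fold change of -2.38 for *Ccnd2*. The labels do not say that a number marks a shared embryo or day, and deviations of same-numbered libraries correlated at -0.029. *Ccnd3*, uncalled throughout, turned to -0.015 with RLE, -0.020 in DESeq2 and -0.015 with no filter, and ranged from -0.064 to 0.041 with 1 library left out. An added limit of 1 on the absolute log2 fold change left 1 higher member, *Cdkn1a*, in place of 6. With raw reads in place of reads per kilobase, the difference between KO and WT in the share of *Ccnd3* was 27.6 percentage points, that of *Cdk6* -3.60, that of *Cdkn1a* 4.03 and that of *Cdkn2c* 5.80, against 34.1, -3.16, 7.73 and 3.99. Among the wider lists, mitosis genes called higher numbered 1 in DESeq2 and 5 with library totals in place of 3, and higher genes of later cyclins and kinases 4 with library totals in place of 2. Over all genes, library totals gave 6628 higher and 3964 lower genes, against 5335 and 5045 with TMM.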
